A study of Homo sapiens with 36 samples.

Results

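The sites described here are adenosines in 5' untranslated regions (5'UTRs) that follow a purine, G or A, and whose 5-base motif is not DRACH (D is A, G or T, R is A or G, then A and C, and H is A, C or T). They were chosen by the authors' region label and by the motif column alone, not by any measured level. The HEK293T table held 1963 such sites of 57011 listed sites, 1751 after G and 212 after A. The table of BE(2)-C cells without all-trans retinoic acid (ATRA) held 369 of 22855, 260 after G and 109 after A. The table of BE(2)-C cells with ATRA held 332 of 21031, 240 after G and 92 after A. Over the 3 tables these were 2294 positions, 1937 after G and 357 after A, of 82971 positions in all, and they fell in 1470 genes. They made up 15.86%, 17.19% and 15.78% of all listed 5'UTR sites in the same order.

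N6-methylated adenosines were mapped at single-base resolution with m6ACE, in which an anti-m6A antibody is crosslinked to RNA and exonuclease digestion stops at it, in HEK293T, a human embryonic kidney line, and BE(2)-C, a human neuroblastoma line. In each of the 3 contexts cells received either a scrambled siRNA (siScram) or an siRNA against PCIF1 (siPcif1), with 3 m6ACE libraries a group. Per the labels' protocols, BE(2)-C cells were transfected for 24 hours, and the ATRA groups then had 10 µM ATRA for 4 days. One treatment text, written for BE(2)-C, stands for all samples, so how HEK293T cells were treated is unknown here, and all samples are labelled WT. The labels call HEK293T a neuroblastoma line, and the BE(2)-C table with ATRA absent carries DMSO in its name. Genes of the adrenergic neuroblastoma list with at least 1 listed site numbered 10 and 9 of 11 in BE(2)-C without and with ATRA and 2 of 11 in HEK293T. Of 5 neuronal markers 4, 5 and 0 had a site in the same order, of 5 kidney or HEK293T markers 0, 0 and 1, and of 4 fibroblast and immune markers none in any table. Whether replicates came from separate cultures is not stated, and all p-values therefore rest on the spread between these libraries, which may be technical. PCIF1 mRNA or protein was not measured in the files used here, so the knockdown itself could not be checked.

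PCIF1 is the methyltransferase that adds N6-methylation to an adenosine that is the first transcribed base and already carries 2'-O-methylation, which makes m6Am next to the cap. Internal m6A is written by the METTL3-METTL14 complex, mostly in the DRACH motif, and the antibody used in such methods binds both marks. RNA polymerase II often starts transcription at a purine after a pyrimidine, so the genomic base before a cap-adjacent adenosine belongs to the promoter, is not transcribed, and is most often C or T. An adenosine that follows G or A, outside DRACH, therefore fits the usual form of neither mark, which is why these sites are described apart. The relative methylation level (RML) is the authors' ratio for a site in a library, and how it was calculated is not stated in the labels. The change of a site is siPcif1 minus siScram on the log2(RML + pseudocount) scale, which understates changes of low sites.

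The sequences below show the sites on which the results turn, as 21 bases of the transcript strand from RefSeq promoter windows (GRCh38.p14). The preceding purine and the adenosine stand in capitals. The first 4 are G-preceded sites with large differences or high levels in HEK293T. They lie at chr1:235161232-235161252 (minus strand), chr19:10106324-10106344, chr19:17933007-17933027 and chr5:179820895-179820915 (plus strand).
RBM34: gcagtctggGAgtctttggag
PPAN: caggcgccgGAagtgagctgc
CCDC124: gacgtcacgGAggcgcgaccg
SQSTM1: tgcgaccggGAcggcccgttt

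The next 4 are A-preceded sites, shown because all share GGAAGT around the site although they belong to different genes. They lie at chr16:381968-381988 (minus), chr2:73926858-73926878 (plus), chr2:27323087-27323107 (minus) and chr6:43013912-43013932 (minus).
TMEM8A: tgcgggcggAAgtgcccgggg
DGUOK: ctagggcggAAgtgctctcgg
MPV17: ttgtggcggAAgttcctaggc
MEA1: ccccgccggAAgtggaggccg

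The last 5 are sites with large differences in BE(2)-C cells, including both sites of TBCC. They lie at chr9:125200534-125200554 (plus), chr16:66552566-66552586 (plus), chr21:33543043-33543063 (plus), chr6:42746078-42746098 (minus) and chr6:42746092-42746112 (minus).
RABEPK: tccggggtgGAgtcacggctc
CKLF: cgcgcaagaGAgcgggaagcc
SON: gggagcctgGAggactagcga
TBCC, G-preceded: aagagagagGAagcttgaagc
TBCC, A-preceded: ggaggaaggAAgacaagagag

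In HEK293T, G-preceded sites were lower with siPcif1. The median RML over the 1751 sites was 3.05, 2.76 and 2.81 in the siScram libraries and 1.47, 1.55 and 1.92 in the siPcif1 libraries, so the groups did not overlap. Within a library the level was also set against the median of coding and 3'UTR DRACH sites, here called internal DRACH sites. G-preceded sites lay 0.32 ± 0.0487 (log2, SD, n = 3) above these in siScram and -0.40 ± 0.0622 in siPcif1, so siPcif1 minus siScram was -0.72. The median change of a site was -0.60, with the middle 50% of sites between -0.98 and -0.22, against -0.08 over all 57011 sites and 0.02 over internal DRACH sites. The change was negative in 1488 sites, or 85.0%, against 57.5% of all sites.

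A-preceded sites in HEK293T differed in the same direction and by less. Their median RML was 2.77, 2.45 and 2.63 in siScram and 1.71, 1.82 and 2.08 in siPcif1, again without overlap. Relative to internal DRACH sites they moved from 0.20 ± 0.0569 to -0.24 ± 0.0185 (log2, SD, n = 3), a difference of -0.44. The median change of a site was -0.38, and 156 of 212 sites, or 73.6%, were negative. The difference relative to internal DRACH sites was -0.83 for C-preceded and -0.78 for T-preceded 5'UTR sites outside DRACH, and -0.11 for 5'UTR DRACH sites. The median change of a site in these classes was -0.72, -0.71 and -0.06. In siScram both pyrimidine classes stood higher, at 1.02 and 0.92 above internal DRACH sites, than the purine classes over all distances. Within 100 nt of the gene start, however, the median siScram RML was 5.97 after A, 5.81 after C, 5.29 after T and 3.51 after G.

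**Figure D1:**
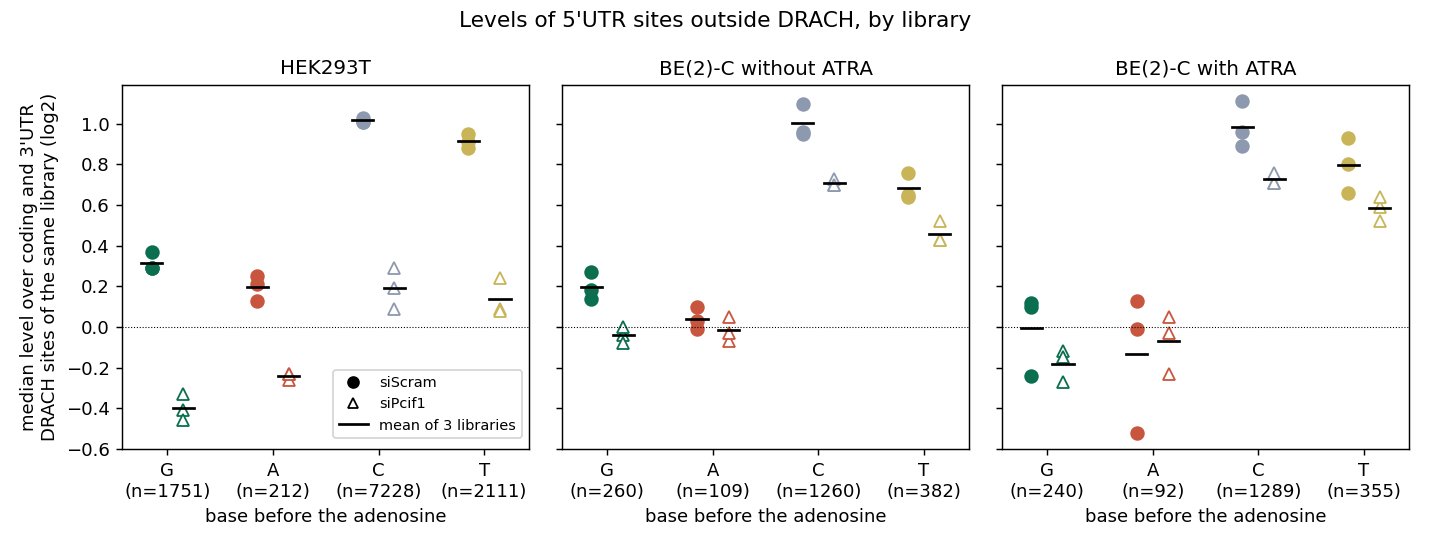
Median level of 5'UTR sites outside DRACH in each library, as log2 above the internal DRACH median of that library (y axis), by the base before the adenosine (x axis). Filled circles are the siScram libraries, open triangles the siPcif1 libraries and lines the means of 3. In HEK293T the G-preceded means are 0.32 and -0.40, and in BE(2)-C with ATRA siScram replicate 1 lies apart at -0.24 (G) and -0.52 (A).

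Counts of single sites pointed the same way, with no call after adjustment. No site of the HEK293T table passed a limma adjusted p of 0.05 (percent called 0.0% in either direction), and the smallest adjusted p of a G-preceded site was 0.157. At an unadjusted limma p of at most 0.05, 531 G-preceded sites (30.3%) were lower and 6 higher, where 9.31% and 2.79% of all sites were. For A-preceded sites these counts were 40 (18.9%) and 5. All 3 siPcif1 libraries lay below all 3 siScram libraries at 564 G-preceded sites (32.2%) and 47 A-preceded sites (22.2%), where 11.7% of all sites did. They lay above at 14 G-preceded and 4 A-preceded sites, 0.80% and 1.89%, where 4.96% of all sites did. The shares for C-preceded and T-preceded sites were 35.4% and 37.0% lower.

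A site entered the table when the authors' deposited p-value called it in siScram or siPcif1, so a site that was high only in siScram could enter for that reason, and these counts and medians describe listed sites. By those deposited p-values, 833 G-preceded sites (47.6%) were called in siScram only, 863 (49.3%) in both groups and 55 (3.14%) in siPcif1 only. For A-preceded sites the counts were 82 (38.7%), 118 (55.7%) and 12 (5.66%). Over all sites the shares were 29.7%, 60.2% and 10.1%, so both classes were more often listed through siScram alone. Relative to internal DRACH sites, the median change of G-preceded sites was -0.56 if called in both groups, -0.69 in siScram only and 0.25 in siPcif1 only. For A-preceded sites the values were -0.36, -0.48 and 0.17 in the same order.

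**Figure D2:**
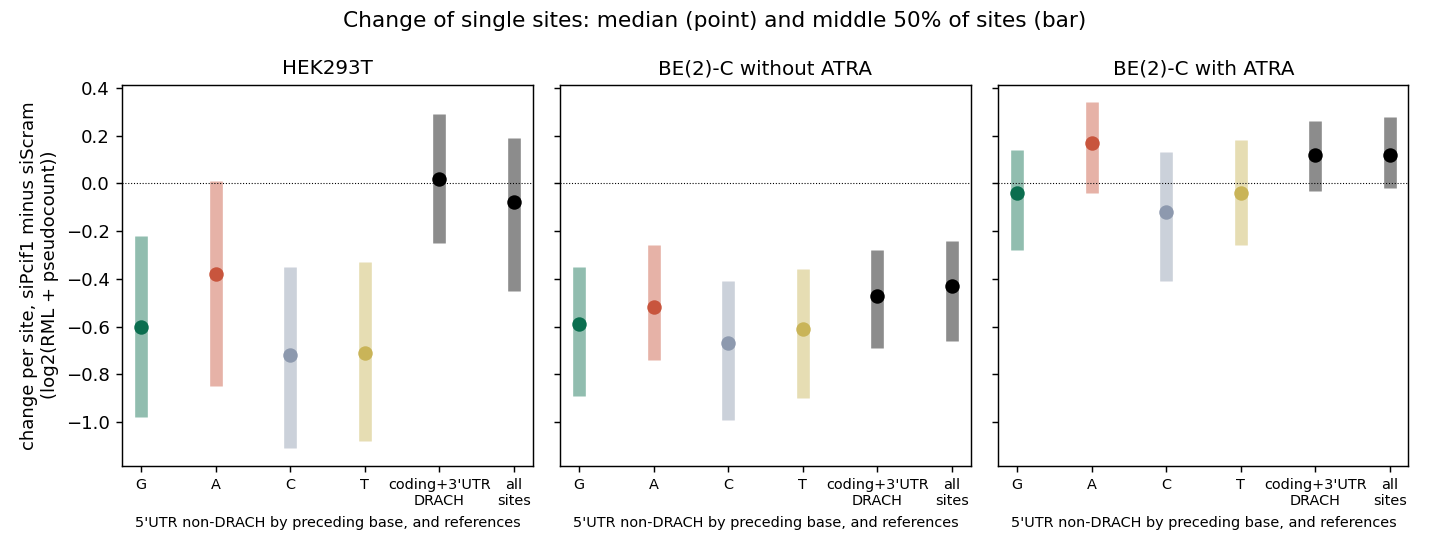
Change of single sites, siPcif1 minus siScram (log2, y axis), as the median (point) and the middle 50% of sites (bar), by preceding base and for internal DRACH and all sites (x axis). In HEK293T the G-preceded median is -0.60 and the internal DRACH median 0.02. In BE(2)-C without ATRA all classes lie below 0, with -0.59 for G-preceded and -0.47 for internal DRACH sites.

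Distance from the annotated gene start separated the sites of HEK293T. Most G-preceded sites, 1441 or 82.3%, were no more than 100 nt from the gene start given by RefSeq, and 282 (16.1%) lay farther. Of A-preceded sites 123 (58.0%) lay within 100 nt and 85 (40.1%) farther. Changes by distance are given relative to internal DRACH sites, that is, after each library was centred on its internal DRACH median. G-preceded sites within 100 nt had a median relative change of -0.67, and those farther away -0.21. For A-preceded sites the values were -0.74 and -0.00, so beyond 100 nt the median A-preceded site lay at the internal DRACH median, and 43 of 85 were negative. Libraries of the A-preceded sites were separated downward at 43 of 123 sites (35.0%) near the start and at 3 of 85 (3.53%) beyond.

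The level followed distance as well. The median siScram RML of G-preceded sites was 4.92 for the 449 upstream of the annotated start and 7.83 for the 81 exactly at it. Downstream it was 5.13 for the 294 in the first 10 nt, 2.33 for the 546 up to 50 nt and 1.09 for the 103 up to 100 nt. The corresponding siPcif1 medians were 2.57, 4.87, 2.82, 1.22 and 0.964. The median relative change was -0.68, -0.73, -0.73, -0.65 and -0.28 in the same order, then -0.16 over the 133 from there to 500 nt and -0.25 over the 117 beyond. Sites upstream of the annotated start are labelled 5'UTR by the authors' annotation, which the RefSeq bounds used here do not match there. Only 4.63% of G-preceded sites sat on the RefSeq start base itself, against 22.8% of C-preceded and 16.9% of T-preceded sites.

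**Figure D3:**
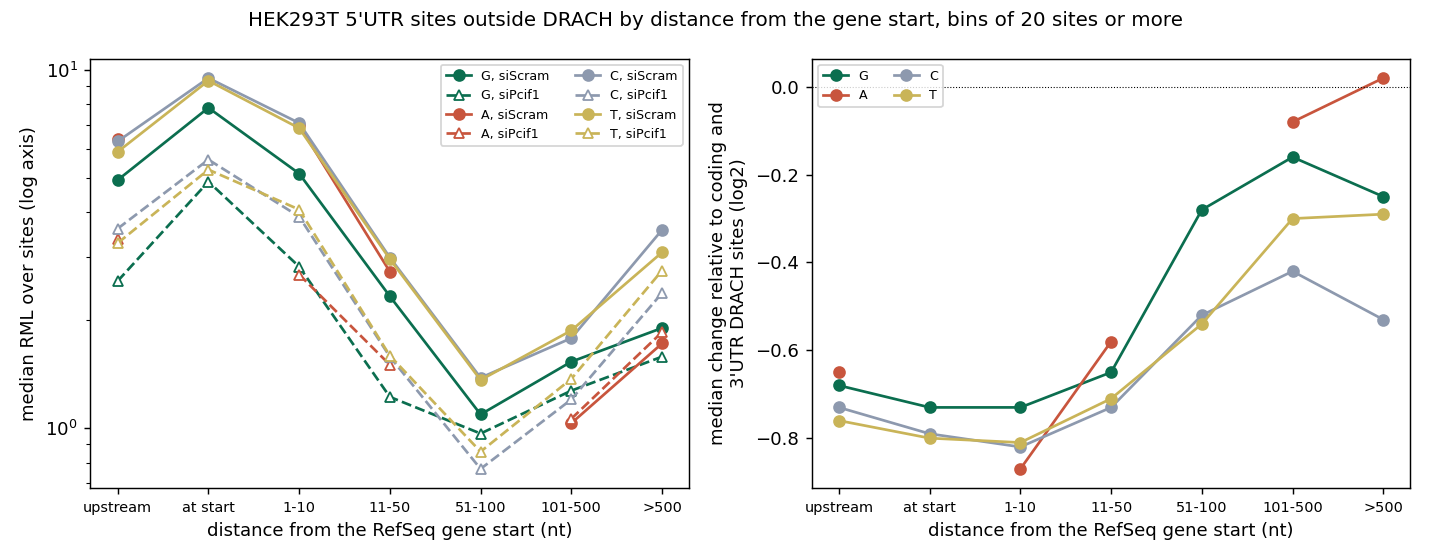
HEK293T 5'UTR sites outside DRACH by distance from the RefSeq gene start (x axis, nt) and preceding base, with the median RML in siScram (solid) and siPcif1 (dashed) on a log axis at left and the median change relative to internal DRACH sites (log2) at right. Only bins of 20 sites or more are drawn, so A-preceded lines are broken. The G-preceded change is -0.73 at 1 to 10 nt and -0.28 at 51 to 100 nt.

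The base after the adenosine also went with the size of the difference. Among G-preceded sites in HEK293T the median relative change was -0.74 before A (393 sites), -0.62 before T (178), -0.56 before G (1040) and -0.36 before C (140). The most frequent motif before C, GGACG, which differs from DRACH in its last base, had 81 sites and a median of -0.33. Near the start the sites before C resembled the others, with -0.61 over 83 sites within 100 nt. Beyond 100 nt they had a median of 0.09 over 56 sites, 24 of them negative, and 8.93% were separated upward. The largest motif class, GGAGG, held 296 sites with a median of -0.62.

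Adenosines inside GGAAG, which is the core of the DNA element bound by ETS-family transcription factors, were frequent among A-preceded sites. This search was added after the values had been seen, and it used GGAAG on the transcript strand and its reverse complement CTTCC. Of 91 A-preceded HEK293T sites with a promoter window, 48 (52.7%) had GGAAG in the 21 bases around the site, and in 45 (49.5%) the site was an adenosine of that motif. For G-preceded sites 205 of 1139 windows held GGAAG, and 118 (10.4%) had the site in it. C-preceded and T-preceded sites, which cannot lie in the motif, had it in 4.04% and 5.33% of windows. On either strand the shares were 52.7%, 19.8%, 9.09% and 8.67% for A, G, C and T. Of all 35116 RefSeq promoter windows 47.3% held GGAAG on the sense strand and 71.9% on either strand, but these windows have 300 bases and cannot be set against shares in 21 bases. The rule itself fixes the purine before the adenosine, so part of this difference is built in.

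A-preceded sites inside GGAAG had a median RML of 7.57 in siScram and 3.84 in siPcif1 and a median relative change of -0.97. The other A-preceded sites had 5.12 and 2.55 and a change of -0.59. Libraries were separated downward at 25 of the 45 sites (55.6%) against 13.0% of the others. G-preceded sites inside GGAAG had a change of -0.84 and the others -0.69. The motif GAAGT alone, as in the 4 sequences above, was listed at 31 sites with a median relative change of -0.89, 30 of them negative. In BE(2)-C the same position was as frequent, with the site in GGAAG at 13 of 22 A-preceded windows without ATRA and 13 of 23 with ATRA. The differences there were mixed. Without ATRA the median relative change inside and outside GGAAG was -0.27 and -0.13 (A), and -0.26 and -0.17 (G). With ATRA it was -0.40 and -0.14 (A), and -0.17 and -0.27 (G). The shares separated downward without ATRA were 23.1% and 33.3% (A), and 57.1% and 43.0% (G). With ATRA they were 7.69% and 0.0% (A), and 0.0% and 10.0% (G).

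The G-preceded sites with the largest lower values in HEK293T lay close to gene starts. SLC29A3, a nucleoside transporter, had RML values of 15.3, 3.79 and 7.01 in siScram and 0.735, 1.26 and 0.416 in siPcif1 at a site 22 nt downstream of the gene start. The groups did not overlap, and the change was -2.89 (SE 0.52, limma adjusted p 0.16). RBM34, an RNA-binding protein, had 6.10, 5.69 and 7.01 in siScram and 1.18, 0.986 and 0.749 in siPcif1. Its siScram libraries were close together, at 6.27 ± 0.68 (SD, n = 3), and all lay above siPcif1 at 0.97 ± 0.21, with a change of -2.38 (limma adjusted p 0.16).

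PPAN, a ribosome biogenesis factor, had 19.8, 18.2 and 9.21 in siScram and 2.94, 2.99 and 1.25 in siPcif1, a change of -2.58. PPOX, an enzyme of haem synthesis, had a change of -2.49, GPT2, a mitochondrial alanine transaminase, -2.39, and MKRN2, a RING-finger protein, -2.38. MKRN2 differed within siPcif1, with 0.367, 0.448 and 3.75, and still did not overlap with siScram. None of these sites passed the adjusted threshold. SLC29A3, RBM34, PPAN, PPOX, GPT2 and MKRN2 were all called in siScram only by the deposited p-values. Their listing could thus rest on high siScram values, and their separation is not independent of it.

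The highest levels among G-preceded HEK293T sites were at CCDC124 and SQSTM1. CCDC124, a ribosome-binding protein, had 107, 85.2 and 60.0 in siScram and 26.9, 44.3 and 29.8 in siPcif1, a change of -1.31 (limma adjusted p 0.28). SQSTM1, the autophagy receptor p62, had 25.2, 120 and 60.5 in siScram and 10.7, 8.25 and 21.2 in siPcif1, a change of -2.18. Both were separated, although the siScram libraries of SQSTM1 spread widely (SD 48.0 around 68.5). The next highest, HSPA1B, a heat shock protein, was listed on an alternate chromosome 6 sequence, with 58.0, 30.0 and 69.3 against 13.2, 22.9 and 23.1 (change -1.36, separated).

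Among A-preceded HEK293T sites those with the largest lower values included 2 in the motif GAAGT. TMEM8A had 10.7, 6.07 and 11.4 in siScram and 2.94, 2.69 and 1.25 in siPcif1, a change of -1.92 (limma adjusted p 0.19). DGUOK, the mitochondrial deoxyguanosine kinase, had 6.61, 9.11 and 12.3 against 2.2, 2.02 and 2.29, also -1.92 (limma adjusted p 0.16). At both sites the groups were separated. Both were called in siScram only by the deposited p-values, so their listing could rest on high siScram values.

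The highest A-preceded levels were at DNAJC8 and PRMT1, and they differed in their response. DNAJC8, a J-domain protein of splicing complexes, had 28.1, 75.1 and 31.0 in siScram and 11.8, 8.80 and 16.0 in siPcif1, a change of -1.74. PRMT1, the main asymmetric arginine methyltransferase, had 42.7, 61.6 and 82.3 in siScram and 20.7, 53.4 and 53.8 in siPcif1, and these groups overlapped (change -0.62, limma adjusted p 0.71). A G-preceded PRMT1 site 2 nt upstream of it also overlapped, at 40.8 ± 6.2 and 34.8 ± 19.0 (SD, n = 3).

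Only 14 G-preceded HEK293T sites were separated upward, and the named ones were in STC2 and SLIT2. STC2, the secreted glycoprotein stanniocalcin-2, had 1.44, 2.37 and 1.53 in siScram and 2.76, 2.69 and 5.31 in siPcif1 at a site 683 nt upstream of the RefSeq start, a change of 0.86 (limma adjusted p 0.42). SLIT2, an axon guidance ligand, had 2.21, 2.05 and 3.13 against 3.36, 3.63 and 3.17 at a site 611 nt downstream of the gene start, a change of 0.43 (limma adjusted p 0.71).

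Genes with many purine-preceded sites in HEK293T, named after their values were seen, differed in where the sites lay and in their changes. Of 1385 genes, 1014 had 1 such site and 113 had 3 or more. EIF4EBP1, which represses cap-dependent translation, had 7 G-preceded sites within 61 nt around its start, and all 7 were separated downward, with relative changes from -1.71 to -0.86. At the start base itself its RML was 20.1, 18.7 and 16.7 in siScram and 3.99, 5.79 and 7.05 in siPcif1. NAA38, an auxiliary subunit of an N-terminal acetyltransferase, had 8 sites within 59 nt, all lower by relative changes from -1.36 to -0.54 and 4 of them separated. FLAD1, which makes the cofactor FAD, had 5 sites within 34 nt with changes from -1.08 to -0.69.

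SLIT2 had the most sites, 14 spread over 1446 nt and at least 450 nt from the start. Their relative changes ran from -0.22 to 0.42 with a median of 0.07, and 6 of 14 were negative. STC2 had sites with changes in both directions. At 33 nt upstream of its RefSeq start its RML was 3.51 ± 0.34 in siScram and 1.36 ± 0.66 in siPcif1 (SD, n = 3), a relative change of -1.29. At 686 nt upstream an A-preceded site had 0.661 ± 0.18 and 1.92 ± 0.51, a relative change of 1.19, with the groups separated in both cases. U2AF2, a splicing factor subunit, likewise had 3 sites between 26 nt upstream and 15 nt downstream of the start with relative changes of -0.96, -0.71 and -0.44. Its 6 sites 376 to 679 nt upstream ran from -0.55 to 0.75.

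**Figure D4:**
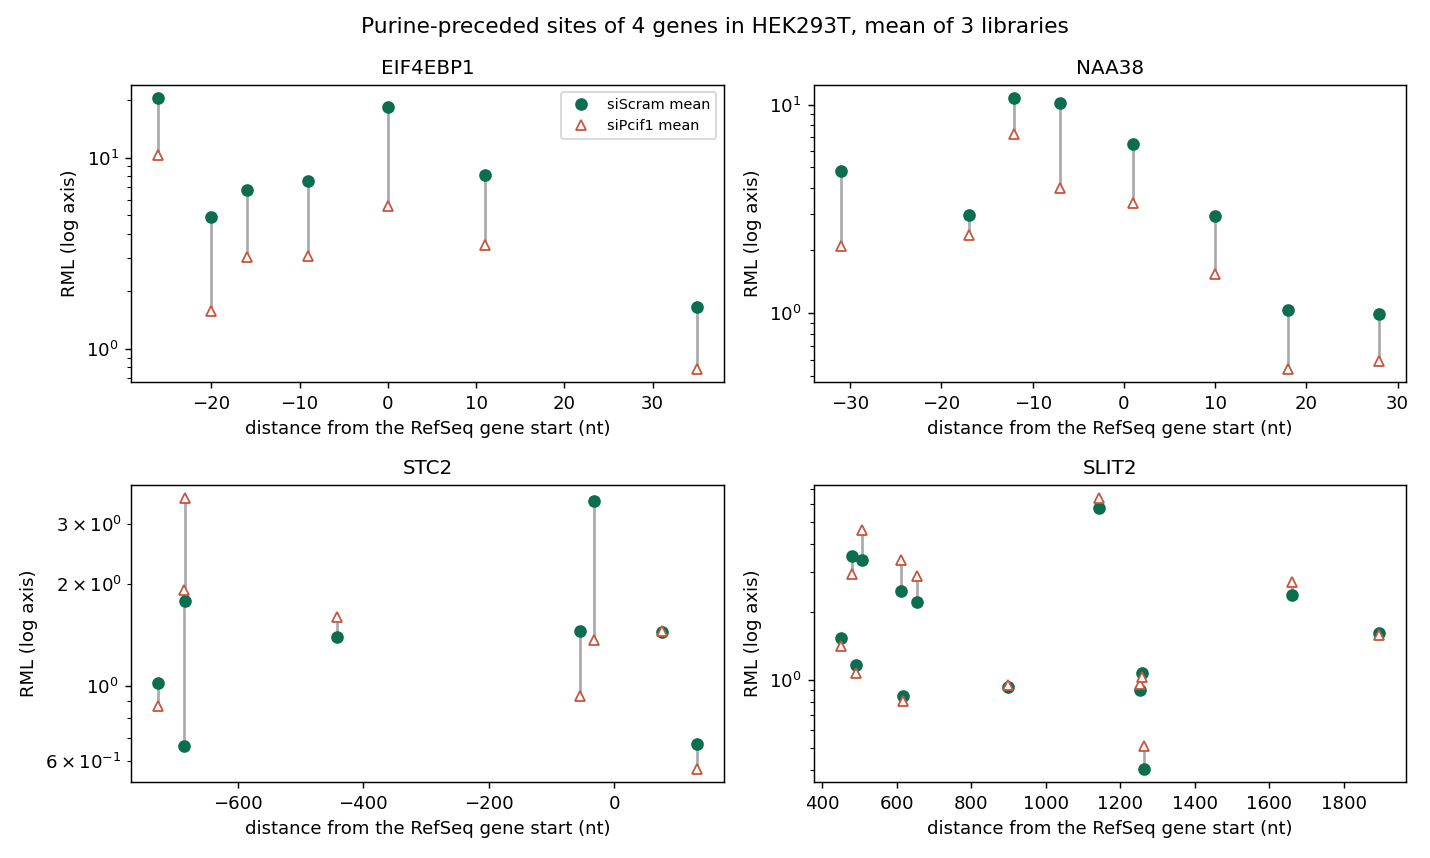
Mean RML (log axis) of the purine-preceded sites of 4 genes in HEK293T against distance from the RefSeq gene start (nt), with siScram as filled circles, siPcif1 as open triangles and a line joining the means of 3 libraries at each site. All 7 EIF4EBP1 and all 8 NAA38 sites are lower with siPcif1, while the 14 SLIT2 sites, 450 to 1896 nt downstream, lie close to their siScram values.

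Gene groups of the HEK293T table are described by counts over G-preceded sites, beside 85.0% negative, a median of -0.60 and 32.2% separated downward over all such sites. The lists were chosen with earlier results of these data known, and none of their sites passed the adjusted threshold. Of 37 sites in mitochondrial ribosomal proteins 36 had negative changes (median -0.65, 18 separated downward). Splicing factors had 23 of 23 negative (median -0.59, 13 separated). Oxidative phosphorylation genes had 36 of 41 negative (median -0.52, 18 separated), proteasome subunits 20 of 24 (-0.56, 7 separated) and translation factors 18 of 21 (-0.69, 10 separated). The translation factor list was matched by gene symbol and takes in the repressor EIF4EBP1. That gene alone held 7 of the 21 sites, all 7 of them among the 10 separated. Cytosolic ribosomal proteins had 30 of 36 negative with a median of -0.18, and 17 of the 36 were separated downward and 1 upward. Zinc finger genes had 15 of 20 negative (-0.60, 4 separated), solute carriers 14 of 19 (-0.46, 4 separated) and RNA helicases 6 of 8 (-0.52, 3 separated). Cleavage and polyadenylation genes had 2 of 3 negative (-0.18, 1 separated). A-preceded sites were few in these lists, from 0 to 9, and cytosolic ribosomal proteins had 7 of 9 negative (-0.15).

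The site with the smallest p in each group is an extreme of it, picked from these same values, and does not show the scale of the group. NDUFAF2, an assembly factor of respiratory complex I, had 2.48, 2.47 and 1.58 in siScram and 0.490, 0.598 and 0.588 in siPcif1, a change of -1.51. PSMD10, a proteasome assembly chaperone, had 2.75, 3.41 and 4.38 against 0.367, 0.359 and 0.694, a change of -2.31. HNRNPU, a nuclear RNA-binding protein, had 1.55, 1.64 and 1.16 against 0.289, 0.380 and 0.514, a change of -1.34. RPL27A and MRPL12, a cytosolic and a mitochondrial ribosomal protein, had low levels, 0.631 ± 0.26 against 0.233 ± 0.029 and 0.415 ± 0.13 against 0.165 ± 0.021 (SD, n = 3). ZNF335 had 6.01 ± 2.80 against 1.03 ± 0.27 and DHX8, a spliceosomal helicase, 3.40 ± 1.60 against 0.872 ± 0.23. All 7 sites were separated downward with limma adjusted p between 0.16 and 0.20. All but HNRNPU were called in siScram only by the deposited p-values, so their listing could rest on high siScram values.

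PCF11, the cleavage and termination factor named in the study's title, had 1 purine-preceded site, in HEK293T, 259 nt downstream of the gene start. Its RML was 3.05, 2.02 and 2.10 in siScram and 1.71, 0.828 and 1.16 in siPcif1, so the groups did not overlap (change -0.83, limma adjusted p 0.38). ALKBH5, an m6A demethylase, had 10.7, 12.9 and 5.26 against 8.82, 4.48 and 4.99, with overlap. No purine-preceded site was listed in PCIF1, METTL3, METTL14, WTAP or FTO.

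In BE(2)-C without ATRA the whole table was lower with siPcif1, and G-preceded sites only slightly more so. The median RML of the 260 G-preceded sites was 2.86, 4.36 and 5.34 in siScram and 1.96, 2.52 and 2.21 in siPcif1. The median change of a site was -0.59, against -0.43 over all 22855 sites and -0.47 over internal DRACH sites. Relative to internal DRACH sites the G-preceded level was 0.20 ± 0.067 in siScram and -0.04 ± 0.0369 in siPcif1 (log2, SD, n = 3), a difference of -0.24 without overlap between libraries. A-preceded sites had median RML of 2.52, 3.89 and 4.69 in siScram and 2.12, 2.37 and 2.29 in siPcif1. Their level relative to internal DRACH sites was 0.04 ± 0.0589 and -0.02 ± 0.0623, a difference of -0.06 with overlapping libraries. The corresponding differences for C-preceded and T-preceded sites were -0.29 and -0.22.

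limma called 22 G-preceded sites lower (8.46%) and 0 higher, and 4 A-preceded sites lower (3.67%) and 0 higher, where it called 3.69% of all sites lower and 0.0219% higher. A-preceded sites were thus called at about the background share. Of C-preceded and T-preceded 5'UTR sites outside DRACH, 9.05% and 9.42% were called lower, and 38.4% and 38.0% were separated downward. At an unadjusted limma p of at most 0.05, 102 G-preceded and 25 A-preceded sites were lower (39.2% and 22.9%) and none higher, where 26.2% and 0.0788% of all sites were. The 3 siPcif1 libraries lay below all siScram libraries at 95 G-preceded sites (36.5%) and 28 A-preceded sites (25.7%), where 27.0% of all sites did, and above at none, where 0.179% did. The downward shares were 14.6% and 4.59% after centring on internal DRACH sites, and 16.2% and 3.67% after centring on all sites. Without siScram replicate 1 they were 76.5% and 70.6%. The share over all sites was not computed under these settings, so these shares have no background to be read against. After each library was centred on internal DRACH sites no member stayed called, and the median relative change was -0.08 for G-preceded and -0.01 for A-preceded sites. Without siScram replicate 1, whose RML values were the lowest of its group, limma called 154 G-preceded and 53 A-preceded sites. Without any one of the other libraries it called 3 to 8 and 0 to 2. Calls over all sites were not counted with a library left out. The limma fit shared its variance almost wholly between sites, with 91420 total degrees of freedom, so the p of a site hardly used that site's own spread. By the deposited p-values 139 G-preceded (53.5%) and 66 A-preceded sites (60.6%) were called in siScram only, where 50.1% of all sites were. Such sites could be listed because they were high in siScram. Of the limma calls, 1 G-preceded and 0 A-preceded were at sites called in both groups.

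RABEPK, an effector of the endosomal GTPase Rab9, fell from 21.2, 24.5 and 17.7 in siScram to 2.38, 3.16 and 2.21 in siPcif1, 2 nt downstream of the gene start. Its libraries were tight in both groups and far apart, with a change of -2.81 (SE 0.46, limma adjusted p 1.1e-05), and -2.30 relative to internal DRACH sites (limma adjusted p 0.16). SON, a scaffold of nuclear speckles, fell from 17.9, 28.9 and 35.5 to 11.1, 2.26 and 6.63, a change of -2.14 (limma adjusted p 0.009). CRIP2, a LIM-domain protein, fell by 1.83 and ACTR6, an actin-related chromatin protein, fell by 1.78 on the log2 scale (limma adjusted p 0.004 and 0.0068). RABEPK, SON, CRIP2 and ACTR6 were all called in siScram only by the deposited p-values. Their listing could thus rest on high siScram values, and the limma p is not independent of it.

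TBCC, a tubulin-folding cofactor, had called sites of both kinds, 14 nt apart. The G-preceded one fell from 7.82, 12.9 and 5.91 to 3.18, 1.81 and 2.32 (change -1.63, limma adjusted p 0.0079). The A-preceded one fell from 31.0, 35.6 and 14.2 to 10.1, 3.84 and 9.94 (change -1.71, limma adjusted p 0.049). C11orf98 also had a called site of each kind, 12 nt apart, with changes of -1.61 (G) and -1.36 (A). FDPS, an enzyme of isoprenoid synthesis, had 2 called G-preceded sites 8 nt apart with changes of -1.13 and -1.10. Other called sites included MRPL27 of the mitochondrial ribosome (-1.54), RPL36 of the cytosolic ribosome (-1.19), NDUFAF4 of complex I assembly (-1.24) and TOMM34, a mitochondrial import factor (-1.27, A-preceded, with overlapping libraries).

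LRFN3, a synaptic adhesion protein, was called at an A-preceded site 624 nt downstream of the gene start, from 4.42, 6.95 and 6.28 to 3.18, 2.26 and 1.55 (change -1.19, limma adjusted p 0.046). HBP1, a transcriptional repressor, had an A-preceded site at its start with 13.0, 10.0 and 41.4 in siScram and 4.24, 9.04 and 4.97 in siPcif1. Its groups did not overlap, yet the call was just missed (change -1.53, limma adjusted p 0.055). PSMD1, a proteasome subunit, stood high in 1 siScram library only (13.6, 10.4 and 68.0) and overlapped with siPcif1. MYCN, the amplified oncogene of this line, had 2 G-preceded sites here, 200 and 1249 nt downstream of the gene start by genomic distance. Their RML was 0.354 ± 0.11 against 0.202 ± 0.072 and 3.48 ± 0.30 against 2.00 ± 0.67 (SD, n = 3). Neither was called, and relative to internal DRACH sites their changes were 0.23 and -0.19. At the site at 200 nt every library lay below the pseudocount of 0.502, which shrinks its change (-0.28). Its positive relative value therefore does not show a rise.

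Gene lists held few sites here, and are set beside 8.46% called and a median relative change of -0.08 over all 260 G-preceded sites. Mitochondrial ribosomal proteins had 10 G-preceded sites with a median relative change of -0.35 and 1 call, oxidative phosphorylation genes 13 with -0.11 and 1 call, and cytosolic ribosomal proteins 6 with -0.12 and 1 call. The other lists had 4 G-preceded sites or fewer, with 1 call, in ZNF146. None of these calls held after centring on internal DRACH sites.

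Distance from the gene start went with the change here too, over a smaller range. G-preceded sites within 100 nt (178 sites) had a median relative change of -0.12 and those farther away (79 sites) 0.05. For A-preceded sites the values were -0.16 (33 sites) and 0.09 (76 sites), so most A-preceded sites of this table, 69.7%, lay far from the annotated start. HAND2, a transcription factor of the adrenergic neuroblastoma programme, had the most purine-preceded sites, 14 between 115 and 478 nt downstream of the gene start. Their RML had medians of 2.45 in siScram and 1.72 in siPcif1, 6 sites were separated downward, and the median relative change was 0.12.

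In BE(2)-C with ATRA no listed site was called by limma (percent called 0.0% in either direction). The median RML of the 240 G-preceded sites was 3.19, 5.21 and 3.58 in siScram and 4.49, 3.77 and 3.21 in siPcif1, so the groups overlapped. The median change was -0.04, against 0.12 over all 21031 sites and 0.12 over internal DRACH sites. Relative to internal DRACH sites the G-preceded level was -0.01 ± 0.204 in siScram and -0.18 ± 0.0812 in siPcif1 (log2, SD, n = 3). A-preceded sites had 2.48, 5.26 and 3.26 against 5.16, 4.17 and 3.33, a median change of 0.17, and levels of -0.13 ± 0.342 and -0.07 ± 0.145. siScram replicate 1 set much of this spread, with -0.24 for G-preceded and -0.52 for A-preceded sites where the other libraries had 0.12 and 0.10, and 0.13 and -0.01. Without it the siScram means were 0.11 and 0.06, and the median changes -0.14 and -0.05.

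The share of separated sites was above the background downward for G-preceded sites, and not for A-preceded sites. C-preceded and T-preceded 5'UTR sites outside DRACH were above it too, with 11.2% and 6.48% separated downward. The siPcif1 libraries lay below all siScram libraries at 18 G-preceded sites (7.50%) and 1 A-preceded site (1.09%), where 1.69% of all sites did. The G-preceded share was 24.2% and 20.0% after centring on all sites and on internal DRACH sites, and 8.33% to 17.9% with 1 library left out. The 1.69% over all sites holds for the main setting only and was not computed for these others. The siPcif1 libraries lay above all siScram libraries at 8 G-preceded (3.33%) and 5 A-preceded sites (5.43%), where 4.66% of all sites did. At an unadjusted limma p of at most 0.05, 9 G-preceded sites were lower and 4 higher, and 0 and 2 A-preceded sites, where 0.842% and 2.03% of all sites were. By the deposited p-values 67 G-preceded (27.9%) and 14 A-preceded sites (15.2%) were called in siScram only, where 18.3% of all sites were. In siPcif1 only 77 (32.1%) and 40 (43.5%) were called, where 40.4% of all sites were. G-preceded sites within 100 nt of the start (150 sites) had a median relative change of -0.26, with 121 negative, and those farther away (85 sites) -0.08. A-preceded sites had -0.22 near the start (30 sites) and 0.09 farther away (60 sites). Of the gene lists, oxidative phosphorylation genes had 12 G-preceded sites with a median relative change of -0.28 and proteasome subunits 6 with -0.56, where all 240 G-preceded sites had -0.18. No other list had more than 5.

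Sites with large differences in ATRA-treated cells included several that were also low in HEK293T. SQSTM1, at the start base shown above, had 32.0, 34.4 and 32.5 in siScram and 14.4, 17.9 and 12.9 in siPcif1. The siScram libraries agreed closely, and the change was -1.10 (SE 0.44, limma adjusted p 1.0). CAPNS1, the calpain small subunit, had 9.30, 7.26 and 4.94 against 3.73, 2.24 and 2.69 (change -1.08). MDK, the retinoic acid-inducible growth factor midkine, had 32.6, 19.2 and 25.4 against 16.2, 8.18 and 12.9 (change -1.02) at a site 929 nt from the RefSeq start. VDAC2, a mitochondrial outer membrane channel, EIF4EBP1 and JUNB, an AP-1 subunit, had changes of -0.91, -0.89 and -0.83, and all 6 sites were separated. CAPNS1, VDAC2, EIF4EBP1 and JUNB were called in siScram only by the deposited p-values. Their listing could thus rest on high siScram values.

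Higher values with siPcif1 were found at CKLF, CYP26A1 and GPBP1. CYP26A1, the hydroxylase that degrades retinoic acid and is induced by it, had 3.02, 5.98 and 6.29 in siScram and 11.7, 10.3 and 6.63 in siPcif1 (change 0.82, limma adjusted p 1.0). GPBP1, a transcription factor of GC-rich promoters, had 6.48, 8.93 and 4.40 against 16.6, 13.9 and 11.1 at an A-preceded site 739 nt from the start (change 1.01). Both were separated upward. By the deposited p-values GPBP1 was called in both groups and CYP26A1 in siPcif1 only, so the CYP26A1 listing could rest on high siPcif1 values. At the highest G-preceded levels the groups overlapped, with 72.6, 86.5 and 27.2 against 43.3, 59.6 and 30.4 at PRMT1. TBC1D24, a regulator of vesicle trafficking, had 35.0 ± 21.0 against 32.9 ± 10.0 and PPARD, a nuclear receptor, 34.6 ± 21.0 against 24.0 ± 13.0 (SD, n = 3). MPV17, a mitochondrial inner membrane protein, was the only A-preceded site separated downward, with 15.5, 13.7 and 12.8 against 7.47, 12 and 11.4 at the GGAAGT site shown above (change -0.43). NEFM, a neurofilament subunit, had the highest A-preceded level, 118, 29.6 and 42.5 in siScram and 33.1, 14.4 and 21.3 in siPcif1, with overlap. PSMC2, a proteasome ATPase, had 21.6, 29.0 and 22.0 against 112, 19.7 and 19.6, so a single siPcif1 library set its change of 0.54, which was -0.28 without it. HAND2 again had 14 sites, 13 of them G-preceded, with median RML of 2.45 and 2.82, and SOX4, a neural transcription factor, had 11 with a median relative change of 0.05.

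The overlap of positions between tables is given as a share of each table's sites. Of the G-preceded sites of BE(2)-C without ATRA 159 (61.2%) were listed in HEK293T, where they were 9.08% of the G-preceded sites, and for the ATRA table the count was 127 (52.9% and 7.25%). The BE(2)-C tables shared 126 (48.5% and 52.5%). A-preceded sites were shared at 22 (20.2% and 10.4%), 17 (18.5% and 8.02%) and 26 positions (23.9% and 28.3%) in the same order. Positions listed in every table numbered 98 after G and 9 after A. The siScram levels of shared sites were ordered alike, with Spearman coefficients from 0.83 to 0.90 for G-preceded sites, given as a description since all libraries come from the same method. Levels of different tables are set side by side only, because each table was scaled alone.

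Of the 10 named sites listed in every table, 3 were separated downward in HEK293T (CCDC124, SZRD1 and MEA1). In HEK293T 11.7% of all sites, 32.2% of G-preceded and 22.2% of A-preceded sites were. In BE(2)-C without ATRA 5 were separated downward (CCDC124, COMMD4, SPCS2, HBP1 and CKLF), where 27.0% of all sites were. With ATRA none of them was separated downward, and CKLF was separated upward. SZRD1 had 21.0, 31.3 and 33.1 in siScram and 9.31, 11.8 and 20.6 in siPcif1 of HEK293T, a change of -1.07 without overlap. Its changes were -0.88 and 0.10 in BE(2)-C without and with ATRA, both with overlap. MEA1, one of the GGAAGT sites, had 39.3, 49.6 and 27.0 against 11.2, 7.50 and 18.7 in HEK293T, a change of -1.66, and -0.87 and 0.33 in BE(2)-C, both with overlap. CCDC124 had changes of -1.31, -1.22 and 0.15, and was separated in the first 2 tables. COMMD4 was separated downward without ATRA (change -0.68) and overlapped in the other contexts (-0.80 and -0.14). SPCS2, a signal peptidase subunit, had 17.2, 15.3 and 20.4 against 7.24, 7.93 and 8.70 in BE(2)-C without ATRA, separated, with a change of -1.09. Its changes were -0.56 in HEK293T and -0.09 with ATRA, both with overlap. MRPL42 had changes of -0.77, -1.16 and -0.69, and PHPT1, a protein histidine phosphatase, 0.20, -0.59 and -0.01, none of them separated. PHPT1 sat at its start base with 31.1, 31.9 and 32.6 in siScram and 27.6, 37.7 and 47.4 in siPcif1 in HEK293T.

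**Figure D5:**
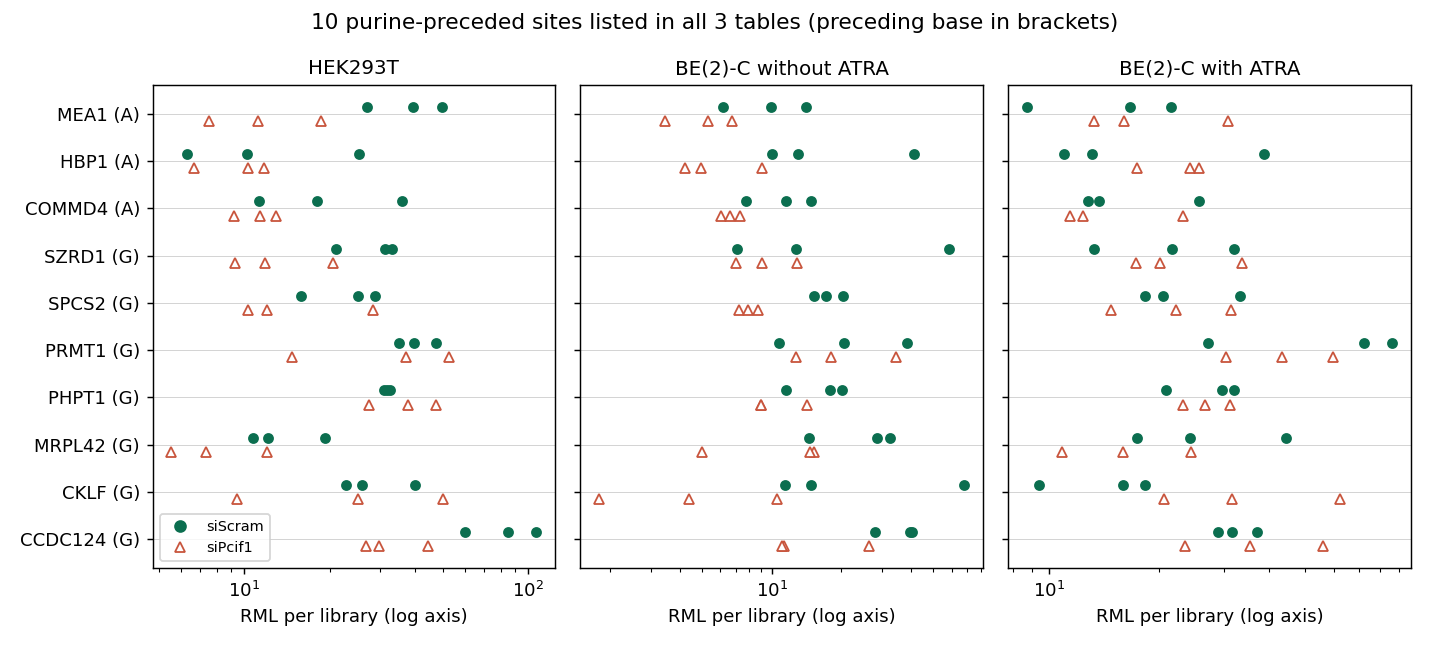
RML of each library (log axis, its range set per context) at 10 purine-preceded sites listed in all 3 tables, with siScram as filled circles and siPcif1 as open triangles. CCDC124, SZRD1 and MEA1 are separated downward in HEK293T, and CKLF is separated downward without ATRA and upward with ATRA.

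Many of these sites had a C- or T-preceded listed site close by. Of the G-preceded HEK293T sites 589 (33.6%) had one outside DRACH within 10 nt. They had a median relative change of -0.69, and the neighbours -0.76, while the other 1162 sites had -0.55. The neighbour had the higher siScram RML in 398 pairs (67.6%), with medians of 5.86 for neighbours and 3.55 for the G-preceded sites. Within 100 nt of the start, 904 G-preceded sites without such a neighbour had a median relative change of -0.64 and 537 with one had -0.71. For A-preceded sites near the start the order was the opposite, with -0.85 over 74 sites without a neighbour and -0.66 over 49 with one. The changes of the G-preceded site and its neighbour had a Pearson coefficient of 0.58 over 589 pairs, which share transcript and libraries. In no G-preceded case was the preceding base itself listed, since it is not an adenosine.

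Some sites were listed on alternate or unplaced sequences of the genome, 23 in HEK293T, 2 without ATRA and 4 with ATRA. CLIC1, a chloride channel protein, was listed at 1 chromosome 6 position and on 5 alternate sequences, with HEK293T relative changes from -0.91 to 0.29 and -0.49 at the primary position. The gene cell held a date instead of a symbol for 3, 1 and 1 sites, and these are left unnamed.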

How the data were processed

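Per the file headers, the authors deposited 1 table per context with a ratio, the RML, for each of 18 m6ACE libraries, a log2 fold change and p-values. The other 18 samples are inputs, for which the tables hold no column. Tools named in the submitters' processing notes for what the authors ran are STAR, Bowtie2, DESeq2, cutadapt 3.7 and bcl2fastq 2.20, on hg38, without their roles. At every listed site at least 1 of the 2 deposited call p-values was 0.05 or less. Depth per site is unknown.

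Values were analysed as log2(RML + pseudocount), the pseudocount being the 5th percentile of the table (0.298, 0.502 and 0.857 for HEK293T and BE(2)-C without and with ATRA). limma 3.58.1 in R 4.3.3 (lmFit, eBayes with trend) was fitted to every site of each table, with Benjamini-Hochberg adjustment over the whole table, and was tested on simulated data. The deposited log2 fold change has the opposite sign and was not used. Distances are genomic, with any introns counted, and run to the nearer of the RefSeq gene bound and the RefSeq promoter-table start (GRCh38.p14). They were known for 98.37%, 99.19% and 97.89% of sites. The 5-base motif equalled the RefSeq window in 1349 of 1349, 179 of 179 and 147 of 147 sites with a window.

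Named sites were the 6 largest decreases and 2 largest increases (G) and the 3 and 1 (A) among separated sites at or above the class median level. To these were added the 3 (G) and 2 (A) highest siScram levels, up to 10 sites in all 3 tables, the smallest p per gene list in HEK293T, and sites in genes of the methylation machinery, PCF11 and MYCN. Called sites of BE(2)-C without ATRA outside this rule and the genes with many sites were named after their values were seen. Members and lists were chosen with earlier results of these data known. One site that this rule names is not reported here.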

Additional observations from a re-analysis of the deposited data

Results flagged for a closer look

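At a G-preceded site on the annotated start base of CKLF, a chemokine-like factor, the 2 BE(2)-C contexts went opposite ways. Without ATRA its RML was 11.4, 14.8 and 68.0 in siScram and 1.79, 4.39 and 10.5 in siPcif1, all 3 lower, with a change of -2.22. With ATRA it was 18.3, 15.9 and 9.43 in siScram and 31.7, 20.6 and 62.2 in siPcif1, all 3 higher, with a change of 1.24. The change relative to internal DRACH sites was -1.71 and 1.11. It was the single such site among 152 shared by these tables, and none was found among 181 and 144 shared with HEK293T. In HEK293T its groups overlapped (change -0.32). By the deposited p-values the CKLF site was called in siScram only without ATRA and in siPcif1 only with ATRA. Its listing in each BE(2)-C table could thus favour the direction seen there. The difference between the contexts was not tested, because the tables were scaled separately.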

How the results depend on the processing

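The median changes of both classes kept their negative sign in HEK293T and in BE(2)-C without ATRA under the alternatives run, while with ATRA the median change of either class changed sign when single libraries were left out. For G-preceded sites in HEK293T the median change was -0.32 with the pseudocount at the median, -0.74 with none, and -0.77 over sites at or above the median level. For A-preceded sites it was -0.21 with the pseudocount at the median, -0.73 at or above the median level, -0.26 when libraries were centred on all sites, and -0.73 within 100 nt of the start. The siScram level over internal DRACH sites (0.32 for G, 0.20 for A) was 0.20 and 0.12 with the pseudocount at the median, 0.51 and 0.66 at or above the median level, 0.61 and 0.49 against all coding and 3'UTR sites, 0.60 and 0.57 over sites called in both groups, 0.43 and 1.08 within 100 nt, and 0.58 and 0.45 with 1 site per gene, and for A-preceded sites 0.37 without those followed by C. The share separated downward for G-preceded sites was 26.3% when centred on all sites and 35.3% within 100 nt. For A-preceded sites it was 29.6% at or above the median level and 35.0% within 100 nt. Here and below, separated shares over all sites were not computed under the alternative settings.

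In BE(2)-C without ATRA the calls (22 and 4) went to 0 and 0 with either centring, 1 and 0 without the variance trend, 1 and 0 over sites called in both groups, and 0 and 0 with the authors' deposited p-values, single or doubled. The 4 A-preceded calls were 2 with the pseudocount at the median. The median change was -0.11 and -0.04 when centred on all sites and -0.08 and -0.01 on internal DRACH sites. The siScram level was 0.66 and 0.51 against all coding and 3'UTR sites, 0.32 and 0.12 over sites called in both groups, 0.44 and 0.49 within 100 nt, and 0.43 and 0.22 with 1 site per gene. The separated share was 16.2% and 3.67% when centred on all sites, 14.6% and 4.59% on internal DRACH sites, 43.1% (G) at or above the median level, and 13.9% (A) over sites called in both groups. With ATRA the siScram level of G-preceded sites was 0.44 at or above the median level, 0.40 against all coding and 3'UTR sites, 0.44 over sites called in both groups, 0.48 within 100 nt and 0.33 with 1 site per gene. For A-preceded sites it was 0.28 against all coding and 3'UTR sites and 0.84 within 100 nt. The separated share with ATRA was 24.2% (G) when centred on all sites, 20.0% on internal DRACH sites, and 0% (A) over sites called in both groups. The causes were not tested. Leaving out sites on alternate sequences, a setting chosen after seeing the data, moved none of these results beyond their spread.

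Replicate numbers are not stated to pair the samples. Correlations of deviations from the group means, over sites, cannot show whether they do. For same-numbered libraries these were 0.0202, 0.0148 and 0.00429 in HEK293T, 0.116, 0.0048 and 0.00858 without ATRA, and -0.309, 0.062 and -0.258 with ATRA. Those of differently numbered libraries ran from -0.0171 to 0.00296, -0.061 to 0.0557 and -0.267 to 0.459. The replicate block gave 64 and 12 calls without ATRA, and 2935 lower over all sites where the main fit gave 843. With the block read as all 3 same-numbered pairs lower, the shares were 48.1% and 38.2% in HEK293T, 66.9% and 53.2% without ATRA and 16.2% (G) with ATRA. This rule is looser than full separation, so it alone raises the share, and no share over all sites was computed for it.

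Leaving out 1 library at a time gave these ranges, G-preceded first. The median change ran from -0.68 to -0.54 and -0.41 to -0.32 in HEK293T, -0.77 to -0.42 and -0.67 to -0.29 without ATRA, and -0.16 to 0.12 and -0.05 to 0.36 with ATRA. Calls without ATRA ran from 3 to 154 and 0 to 53. The siScram level ran from 0.29 to 0.33 and 0.17 to 0.23, 0.16 to 0.22 and 0.01 to 0.07, and -0.07 to 0.11 and -0.26 to 0.06. The separated share ran from 38.9% to 47.5% and 26.9% to 32.5%, 36.9% to 76.5% and 25.7% to 70.6%, and 8.33% to 17.9% and 1.09% to 9.78%, and fewer libraries alone raise it. A variance setting gives no separated share and has no value there.

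Of the alternatives for named sites, 31 reversed the sign, none of them at a called site. Over single left-out libraries, HEK293T changes ran from -0.79 to 0.12 for PRMT1 after G, -0.78 to 0.21 for HBP1 and -0.88 to 0.31 for CKLF, and without ATRA from -0.48 to 0.41 for PRMT1. With ATRA they ran from -0.48 to 0.50 for TBC1D24, -0.28 to 0.96 for PSMC2, -0.16 to 0.45 for CCDC124, -0.21 to 0.40 for SZRD1, -0.19 to 0.11 for PHPT1, -0.34 to 0.18 for SPCS2, -0.03 to 0.84 for HBP1, -0.45 to 0.16 for COMMD4 and -0.02 to 0.60 for MEA1. Centred on all sites and on internal DRACH sites, PRMT1 was 0.45 and 0.48 without ATRA. The MYCN site 200 nt downstream of the gene start was 0.20 and 0.23 there. With ATRA, TBC1D24 was -0.08 and -0.05 and SZRD1 -0.05 and -0.03 in the same order, and CCDC124 was -0.01 centred on all sites. The 8 named called sites lost an adjusted p of 0.05 under either centring, and 7 of them without the variance trend.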
